A study of Mus musculus with 8 samples.

Results

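Solute carriers are membrane proteins that move amino acids, sugars, nucleotides, metals, inorganic ions and vitamins across the plasma membrane and the membranes of organelles. The genes described here are the solute carrier genes of a mouse macrophage table, chosen by symbol (Slc, a family number, a letter and a member number) and by a mean of at least 50 normalized reads over the 4 mRNA group values. Of the 11415 symbols deposited 211 matched, 5 were left out by name (the hexose and monocarboxylate carriers Slc2a1, Slc2a6, Slc16a1 and Slc16a3, and Slc9a3r1, a scaffold gene), 18 lay below the mean, and 188 genes of 43 families remained. Nearest the limit were Slc6a4 (45.5) and Slc25a53 (47.9) outside and Slc25a35 (50.3) and Slc18b1 (54.9) inside. Slc7a6os and Slc4a1ap match the pattern but are not transporters and were kept apart from the substrate lists.

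Carriers of the Slc7 family work as light chains or as single proteins, and several of them reach the cell surface only when joined to the glycoprotein encoded by Slc3a2. Macrophages depend on cystine import for glutathione, on arginine import for nitric oxide synthase and arginase, and on iron export through ferroportin (Slc40a1) after they digest red cells. Lysosomal carriers return the products of digestion to the cytosol, and carriers of the Slc25 family cross the inner mitochondrial membrane.

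The cells were macrophages grown from bone marrow in M-CSF conditioned medium and came from 129S6/SvEvTac mice of genotype IL10-/-RAG2-/- in every group, the untreated one included, so the Il10 and Rag2 genes are disrupted in all of them. One group was left untreated and the other three received LPS (bacterial lipopolysaccharide, a Toll-like receptor 4 ligand) for 195 min at 1 ng/mL. LPS was given alone, together with IL-10 from the start (an anti-inflammatory cytokine, 1 ng/mL; called IL-10 throughout) or with IL-10 added only during the final 30 min (called late IL-10). No label repeats the dose of the late addition, and 2 pools of macrophages are spoken of in the series text. Total RNA was depleted of ribosomal RNA, and both mature mRNA and pre-mRNA (reads assigned to unspliced transcripts) were deposited for each group.

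Values are normalized reads per library, given for library A and then library B of a group, n = 2 per group. Changes are differences on the log2(normalized reads + 1) scale ± SE, and "rose" or "fell" means a Benjamini-Hochberg adjusted p under 0.05 in limma over all genes tested. No label says that the 2 libraries of a group are separate cultures, so p-values measure only the variation between libraries, which may be technical. The gap between the 2 libraries of a group was correlated over genes with that of every other group (Pearson's r from 0.34 to 0.80 by pre-mRNA; 0.36 to 0.84 by mRNA, with the sign turned against the LPS group, at -0.35 to -0.89), a description over 10647 (mRNA) and 9792 (pre-mRNA) genes that are not independent. Matched in this way and fitted as a block, more members passed the threshold in all comparisons except late IL-10 by mRNA, as given in the closing section. The p-values in the text come from the fit with no block. Recovered totals per library ranged from 21412968 to 53172133 reads for mRNA and from 8661271 to 31508394 for pre-mRNA. The smallest LPS mRNA count was 11 in the table and 12 among the members, so genes that LPS lowered further are outside the table. All 9 macrophage markers in it were present in every library, with sums of 515235 to 528661 normalized mRNA reads untreated and 790930 to 837368 with LPS. Of the other cell types' markers, 8 neutrophil genes summed to 2070 to 2657 untreated and 3305 to 5089 with LPS, 4 dendritic cell genes to 151 to 169 and 605 to 705, and Lck with Cd28 (T cell) to 3324 to 5494 and 431 to 735. The T cell sum was nearly all Cd28 (3317 and 5487 untreated, 395 and 618 with LPS). Lck went the other way, from 6.61 and 6.21 to 36.1 and 118. Only these 2 of the 5 T cell markers looked for are in the table, and Cd3e, Cd3g and Cd3d are not. None of the 4 B cell markers is in the table, and the stromal gene Pdgfra was at 0 in both untreated libraries. The part of these levels in the results below was not tested, and in bulk RNA fewer cells of a type and less RNA per cell cannot be told apart.

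Promoters of 3 members are printed because each belongs to a gene that a result turns on: Slc7a11, the member with the largest LPS rise; Slc37a2, whose pre-mRNA fell further than its mRNA; and Slc39a10, whose pre-mRNA rose with IL-10. They are RefSeq windows on GRCm38.p6 (the build also called mm10), from 250 bases before to 50 bases after a start site, on the minus strand, 5′ to 3′. Capitals mark TGATGCAA or its reverse complement in Slc7a11, TGACTCA or its reverse complement in Slc37a2, and TTCNNNGAA in Slc39a10.
Slc7a11, chr3:50443564-50443863: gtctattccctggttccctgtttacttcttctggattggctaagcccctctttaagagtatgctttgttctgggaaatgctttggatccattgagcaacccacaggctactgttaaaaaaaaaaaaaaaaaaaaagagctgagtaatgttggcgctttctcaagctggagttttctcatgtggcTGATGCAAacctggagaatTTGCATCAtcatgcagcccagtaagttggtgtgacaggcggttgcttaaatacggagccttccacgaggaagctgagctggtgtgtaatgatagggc
Slc37a2, chr9:37255689-37255988: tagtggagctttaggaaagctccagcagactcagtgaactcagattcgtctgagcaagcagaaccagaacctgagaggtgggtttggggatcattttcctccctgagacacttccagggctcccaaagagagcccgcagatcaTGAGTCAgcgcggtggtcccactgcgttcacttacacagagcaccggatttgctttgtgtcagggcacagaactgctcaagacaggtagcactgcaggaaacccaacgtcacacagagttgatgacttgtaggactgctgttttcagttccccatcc
Slc39a10, chr1:46925727-46926026: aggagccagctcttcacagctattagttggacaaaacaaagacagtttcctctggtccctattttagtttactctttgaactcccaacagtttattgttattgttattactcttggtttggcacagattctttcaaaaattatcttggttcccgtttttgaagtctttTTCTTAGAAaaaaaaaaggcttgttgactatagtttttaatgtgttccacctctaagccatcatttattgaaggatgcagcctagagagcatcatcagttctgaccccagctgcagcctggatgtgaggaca

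The Slc7a11 window holds TGATGCAA (the amino acid response letters) with its first base 66 bases before the start and the reverse complement TTGCATCA 47 bases before it. These letters occurred, on either strand, in 0.895% of the 32851 mouse promoter windows and in 2.58% of the 194 windows of the 141 members in the table (5 windows of 4 genes). TGAGTCA, the AP-1 letters, began 107 bases before the Slc37a2 start, and they or their reverse complement occurred in 5.2% of all windows and 3.61% of member windows. TTCTTAGAA, a match to the STAT letters TTCNNNGAA, began 82 bases before the Slc39a10 start printed here, and the other of the 2 RefSeq windows of that gene held no such match. These letters were in 8.3% of all windows and 5.67% of member windows. No window of Slc41a1, Slc43a2 or Slc12a9, whose pre-mRNA also rose with IL-10 throughout or late IL-10, held such a match. The Slc7a11 window also matches TTCNNNGAA, which is not capitalized there. The interferon response motif was in 3.44% of all and 1.55% of member windows, TGACGTCA (cAMP response) in 1.79% and 2.06%, and TGATGAAA (the other amino acid response form) in 1.02% and 1.03%. A match is a description of the letters and does not show that a factor binds there. Of the 58 named members 40 had a window.

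Per kilobase of exon, which allows levels to be compared between genes, the members ranged from 8.82 to 7266 normalized mRNA reads averaged over the groups, with a median of 195. The taurine transporter Slc6a6 was highest (7266), followed by the cationic amino acid transporter Slc7a2 (7119), the heavy chain Slc3a2 (5433), the lysosomal peptide and histidine transporter Slc15a3 (5346), the copper transporter family member Slc31a2 (4615) and the heme transporter Slc48a1 (4554). The order depended on treatment for some of them: Slc7a2 was at 251 per kilobase untreated and 11853.5 with LPS, whereas Slc6a6 was at 7068 and 7507.

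With LPS, mRNA of 34 members rose and of 46 fell, 42.6% of 188 against 35.7% of all genes tested. The rising share was 18.1% (19.2% of all genes) and the falling share 24.5% (16.5% of all genes), and the median change was -0.17 against 0.01. By pre-mRNA 36 rose and 58 fell of 187 tested, 50.3% against 44% of all genes; 19.3% rose (22.3% of all genes) and 31% fell (21.7%), with medians of -0.34 and 0.00. A further 96 genes were chosen by symbol from other transporter families (ABC, organic anion transporter and Mfsd genes, ion pumps and channels). Of these 19 rose and 14 fell by mRNA (19.8% and 14.6%), and 23 and 22 of 95 by pre-mRNA (24.2% and 23.2%). All changes are set relative to the median gene. With total reads as the scale, LPS changes are lower by 0.75 (mRNA) and 0.92 (pre-mRNA) on the log2 scale, which gives 24 members up and 93 down by mRNA and 21 and 89 by pre-mRNA. Leaving out 1 library gave 42 (LPS library B), 49 (untreated library A) or 53 (untreated library B) mRNA calls in place of 80, and 62 or 61 (untreated library A or B) pre-mRNA calls in place of 94.

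**Figure D1:**
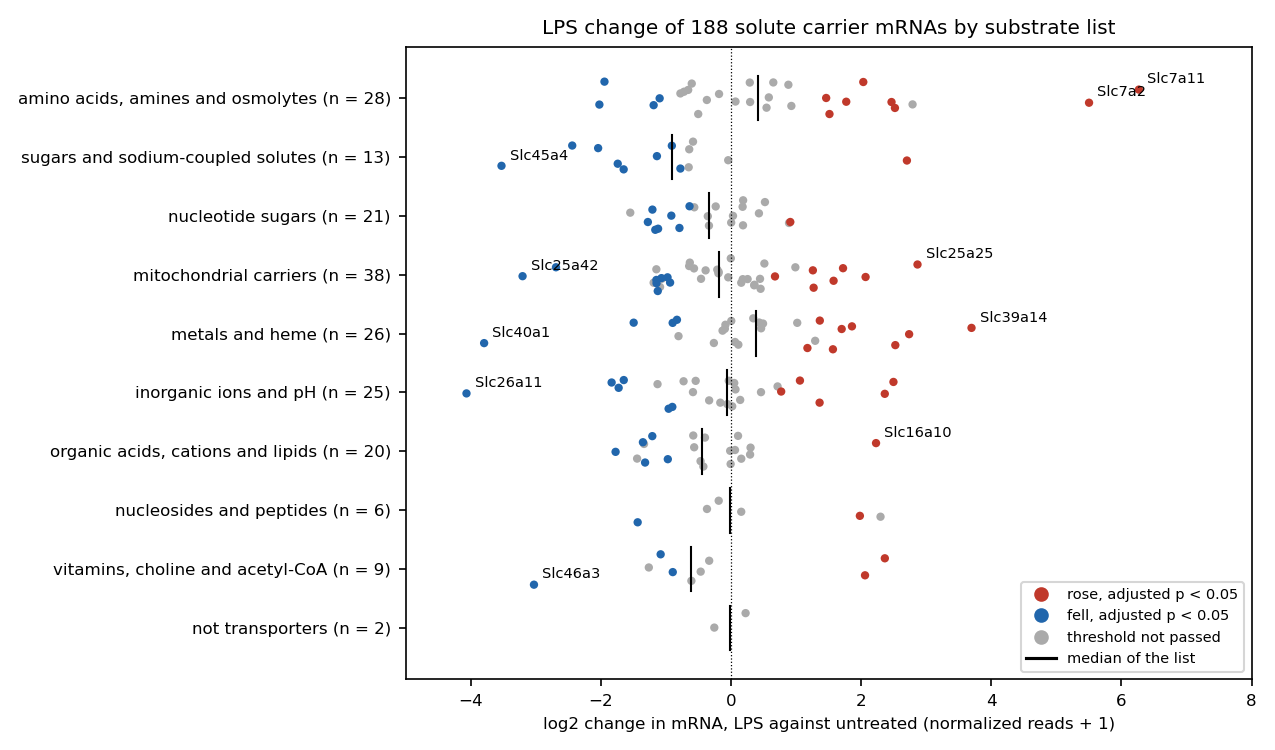
Each point is the log2 change in mRNA of 1 member with LPS against untreated cells (x axis, normalized reads + 1), by substrate list, red where it rose, blue where it fell and grey where the threshold was not passed, with a black line at the list median. The amino acid list reaches from -2.02 to 6.27, and the sugar list has 8 of 13 members in blue (61.5% against 16.5% of all genes). Scaled to total reads, the medians of the amino acid and metal lists turn from 0.42 and 0.39 to -0.33 and -0.36.

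Amino acid carriers included the members with the largest LPS rises. Slc7a11, the light chain of the cystine/glutamate exchanger (chr3:49892526-50443614, mm10), had 862 and 1303 normalized mRNA reads in the untreated libraries and 84149.8 and 79303 with LPS. Every LPS library lay far above both untreated ones, a change of 6.27 ± 0.25, adjusted p = 2.5e-05 in limma. Its pre-mRNA went from 246 and 498 to 93924 and 106791, a change of 8.16 ± 0.43. Slc7a2, a transporter of arginine and other cationic amino acids (chr8:40862396-40922308), had 2339 and 2238 mRNA reads untreated and 77115 and 139448 with LPS. The LPS libraries were well above the untreated ones although they differed from each other, a change of 5.50 ± 0.43, adjusted p = 0.00025 in limma, and its pre-mRNA rose by 6.31 ± 0.50.

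Other members of the amino acid list rose less. Slc7a5, a large neutral amino acid transporter that pairs with Slc3a2, had 442 and 556 mRNA reads untreated and 1813 and 4155 with LPS. The groups did not overlap, and the LPS libraries differed widely (2.47 ± 0.54, adjusted p = 0.014 in limma; 1.87 to 2.63, adjusted p from 0.057 to 0.077 without LPS library B or either untreated library). Its partner chain Slc3a2 was at 11696 and 19486 and 21916 and 23294, a change of 0.58 ± 0.26, adjusted p = 0.13 in limma that did not pass the threshold. Slc7a8, a further partner of Slc3a2 for neutral amino acids, rose by 1.51 ± 0.22, the glycine transporter Slc6a9 by 2.52 ± 0.32 (from 45.6 and 58.3 to 354 and 255 reads) and the glutamate transporter Slc1a2 by 1.77 ± 0.28 (from 77.4 and 73.2 to 229 and 294). Of the 8 Slc7 carriers 6 rose by mRNA and none fell, where 19.2% of all genes rose and 16.5% fell. Slc7a1 (2.03) and Slc7a7 (1.46), outside the naming rule, were added after their values were seen. By pre-mRNA 5 of the 8 rose and 1 fell, where 22.3% of all genes rose and 21.7% fell. The fall was Slc7a4, which had 0 pre-mRNA reads in both LPS libraries and 33 untreated, at least 6.83-fold lower when the LPS group is set to a floor of 3 reads in all, which covers counting error alone. Its call was lost in limma under several alternatives (-3.25 to -4.69, adjusted p from 0.071 to 0.2 without either LPS library or either untreated library; adjusted p = 0.053 with a pseudocount of 0.25).

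The falls in this list were led by Slc38a9, a lysosomal arginine sensor, from 2076 and 1269.8 to 373 and 427 mRNA reads (-2.02 ± 0.28), and Slc43a2, a transporter of branched-chain and aromatic amino acids (chr11:75531694-75577575), from 70296 and 62141 to 18548 and 15918 (-1.94 ± 0.21). Both were lower in each LPS library than in each untreated library. The other 2 falls, named because the list had 4, were the proton-coupled carriers Slc36a1 (-1.10) and Slc36a4 (-1.19). Of 28 members 8 rose and 4 fell by mRNA, 28.6% and 14.3% against 19.2% and 16.5% of all genes. By pre-mRNA there were 8 rises and 9 falls, 28.6% and 32.1% against 22.3% and 21.7% of all genes. With total reads as the scale, 8 rose and 11 fell by mRNA. Slc6a6 mRNA (0.07 ± 0.30, adjusted p = 0.88), the glutamine transporter Slc1a5 (-0.18 ± 0.22, adjusted p = 0.54) and Slc38a2, a sodium-coupled neutral amino acid transporter (0.55 ± 0.27, adjusted p = 0.16), did not pass the threshold in limma. Slc1a5 pre-mRNA fell (-1.32 ± 0.35, adjusted p = 0.019 in limma; -0.97 to -1.37, adjusted p from 0.07 to 0.1 without LPS library A or either untreated library). Slc36a2, a proton-coupled carrier of small amino acids, had 260.5 and 187 pre-mRNA reads untreated and 1.18 and 16.2 with LPS. Its change (-5.18 ± 1.57, adjusted p = 0.031 in limma) was -3.69 to -5.42, adjusted p from 0.1 to 0.15 without LPS library A or either untreated library; adjusted p = 0.066 with no filter on low values and 0.065 with a pseudocount of 0.25.

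**Figure D2:**
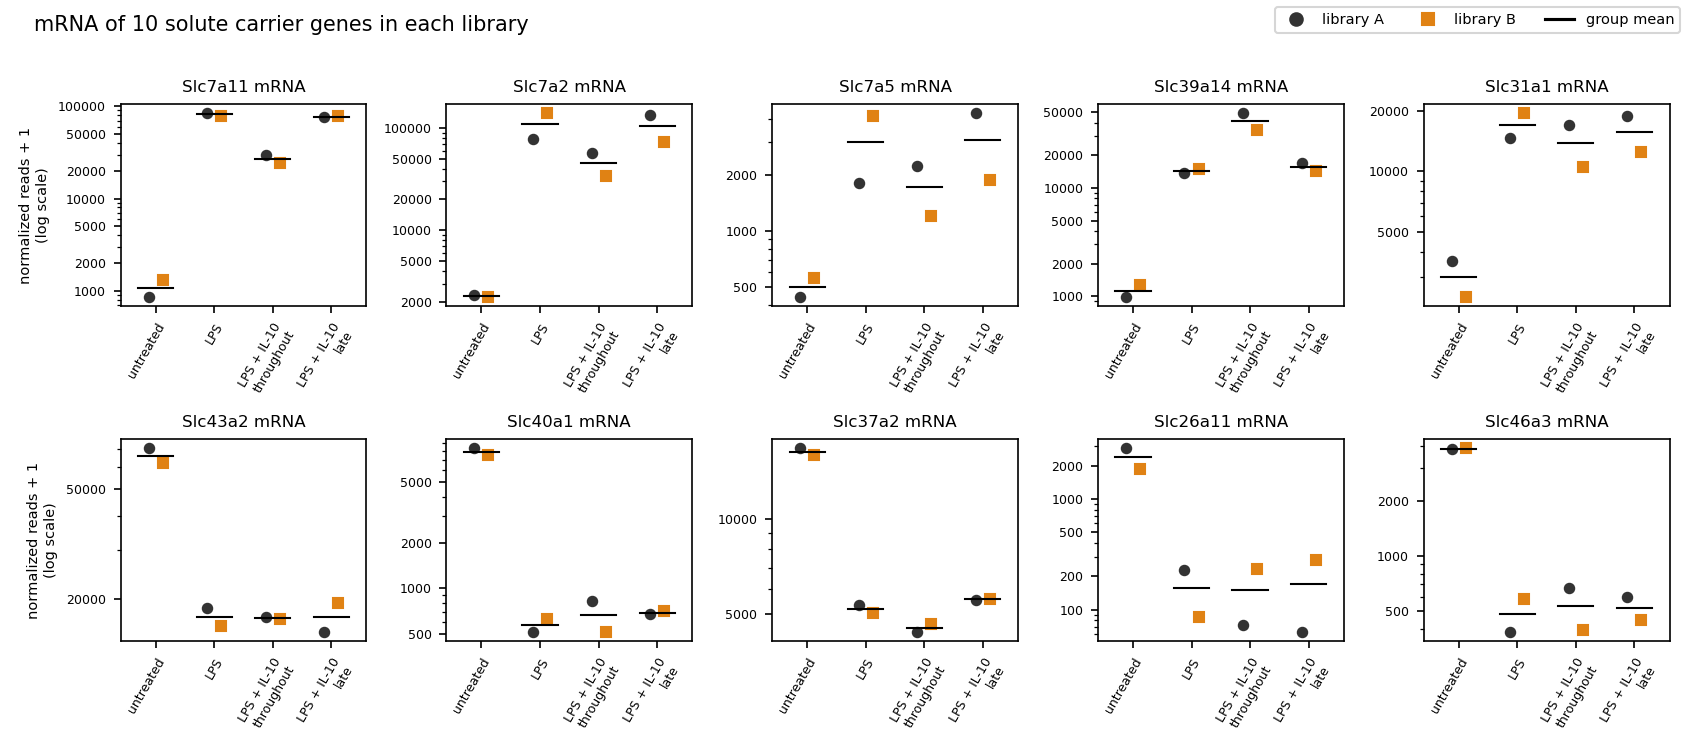
Each panel shows 1 gene's normalized mRNA reads + 1 (y axis, log scale) in library A (circle) and library B (square) of the 4 groups, with a line at the group mean. Slc7a11, Slc7a2, Slc7a5, Slc39a14 and Slc31a1 are higher in every LPS library than in either untreated library, and Slc43a2, Slc40a1, Slc37a2, Slc26a11 and Slc46a3 are lower. The letters A and B do not come from the labels, and no change with LPS named here turned direction when scaled to total reads.

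Metal carriers moved in both directions. Slc39a14, an importer of zinc, iron and manganese (chr14:70303469-70351425), had 985 and 1259 mRNA reads untreated and 13818 and 15093 with LPS, a change of 3.70 ± 0.24, adjusted p = 0.00016 in limma. Slc40a1, which encodes the iron exporter ferroportin (chr1:45908068-45926523), had 8312 and 7554 untreated and 518 and 629 with LPS, a change of -3.79 ± 0.26, adjusted p = 0.00016 in limma, and its pre-mRNA went from 1744 and 1432 to 24.7 and 87.7 (-5.05 ± 0.61). The LPS libraries were all above the untreated ones for the importer gene and all below them for the exporter gene, fitted as 13-fold higher and 13.9-fold lower than untreated. The iron importer of endosomes Slc11a2 rose by 1.86 ± 0.30, from 1080.2 and 2047 to 5235 and 5562. The copper transporters Slc31a1 and Slc31a2 rose by 2.53 ± 0.35 and 2.74 ± 0.25. Slc41a1, a magnesium transporter, fell by 1.49 on the log2 scale, from 917 and 1178 to 378 and 359 reads. Of 26 members 8 rose and 4 fell by mRNA, 30.8% and 15.4% against 19.2% and 16.5% of all genes. By pre-mRNA 9 rose and 5 fell, 34.6% and 19.2% against 22.3% and 21.7% of all genes. Scaled to total reads the mRNA counts were 6 and 11. The other 2 falls by mRNA, Slc39a3 (-0.83) and Slc41a3 (-0.90), were small. The phagosomal metal transporter Slc11a1 (-0.09 ± 0.25, adjusted p = 0.8), the zinc exporter Slc30a1 (0.43 ± 0.27, adjusted p = 0.24) and the heme transporter Slc48a1 (0.11 ± 0.18, adjusted p = 0.65) did not pass the threshold in limma. Slc39a10, a zinc importer, fell by pre-mRNA (-2.28 ± 0.28), with mRNA at -0.81 ± 0.27, adjusted p = 0.054 in limma.

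Of 13 sugar and sodium-coupled solute carriers 8 fell and 1 rose by mRNA (median -0.91), 61.5% and 7.7% against 16.5% and 19.2% of all genes. By pre-mRNA 7 fell and none rose (median -2.09), 53.8% and 0% against 21.7% and 22.3% of all genes. Slc37a2, a glucose-6-phosphate transporter of the endoplasmic reticulum (chr9:37227585-37255738), fell from 16660.2 and 15876 to 5348 and 5031 mRNA reads (-1.65 ± 0.16, adjusted p = 0.00058 in limma), and its relative Slc37a1 from 247 and 397 to 70.1 and 46.2 (-2.44 ± 0.38). The glucose transporter Slc2a3 fell from 997 and 722 to 258 and 164 (-2.04 ± 0.35). Slc45a4 went from 3497 and 3283 to 423 and 203 (-3.53 ± 0.50). In all 4 genes every LPS library lay below every untreated one. The intracellular sugar transporter Slc2a8 fell too (-1.14 ± 0.24, adjusted p = 0.011 in limma; -0.96 to -1.03, adjusted p from 0.055 to 0.079 without LPS library B or untreated library B). The single rise was Slc45a3, from 22.5 and 23.6 to 96.9 and 249 reads (2.70 ± 0.73, adjusted p = 0.028 in limma; 2.03 to 2.74, adjusted p from 0.11 to 0.15 without LPS library B or either untreated library; adjusted p = 0.063 with limma-voom). The sodium-coupled inositol transporter Slc5a3 was at -0.04 ± 0.53, adjusted p = 0.96 in limma, and its gene overlaps Mrps6 on the same strand.

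Of 38 mitochondrial carriers 7 rose and 8 fell by mRNA, 18.4% and 21.1% against 19.2% and 16.5% of all genes. Among the 37 tested by pre-mRNA 7 rose and 9 fell, 18.9% and 24.3% against 22.3% and 21.7% of all genes. Slc25a25, an ATP-magnesium/phosphate carrier, rose from 374 and 478 to 3985 and 2392 mRNA reads (2.87 ± 0.33, adjusted p = 0.0011 in limma), the glutamate carrier Slc25a22 from 509 and 700.0 to 1883 and 3341 (2.07 ± 0.36) and the iron importer Slc25a37 (mitoferrin 1) from 3987 and 3011 to 11932 and 10954 (1.72 ± 0.21). The coenzyme A carrier Slc25a42 fell from 159 and 192 to 19.6 and 16.8 (-3.20 ± 0.40), and Slc25a45 fell by 2.69 on the log2 scale. The groups did not overlap for any of these genes. The phosphate carrier Slc25a3 was at 7322 and 8286 untreated and 7256 and 8334 with LPS, with overlapping libraries. Slc25a18, a mitochondrial glutamate carrier that overlaps Atp6v1e1 on the other strand, rose (1.26 ± 0.36, adjusted p = 0.032 in limma; 0.89 to 1.56, adjusted p from 0.05 to 0.18 without LPS library B or either untreated library; adjusted p = 0.27 scaled to total reads). Scaled that way 4 members rose and 16 fell by mRNA.

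Of 25 carriers of inorganic ions 5 rose and 6 fell by mRNA, 20% and 24% against 19.2% and 16.5% of all genes, and 2 rose and 13 fell when scaled to total reads. Slc26a11, an anion exchanger that carries sulfate (chr11:119355557-119381079), had the largest mRNA fall of all members, from 2853 and 1878 to 225 and 84 reads. Both LPS libraries were far below the untreated ones (-4.06 ± 0.86, adjusted p = 0.012 in limma; -3.36 to -4.36, adjusted p from 0.052 to 0.074 without LPS library B or either untreated library), and pre-mRNA fell from 3031 and 3292 to 48.2 and 120.1 (-5.36 ± 0.91). Of the 4 Slc26 genes 3 fell, with Slc26a1 (-1.65) and Slc26a6 (-0.96) added after their values were seen. The potassium-chloride cotransporter Slc12a4 rose from 1229 and 2896 to 10322 and 10990.2 (2.50 ± 0.37), and the sodium-bicarbonate cotransporter Slc4a7 from 4148 and 3529 to 14599.6 and 26557 (2.36 ± 0.51, adjusted p = 0.013 in limma; 1.93 to 2.48, adjusted p from 0.059 to 0.076 without LPS library B or either untreated library). The other rises, named because there were 5, were the phosphate transporter Slc20a1 (1.36), Slc24a5 (1.06) and the anion exchanger Slc4a2 (0.77). Slc12a9 fell (-1.83 ± 0.36, adjusted p = 0.0088 in limma; -1.59 to -1.73, adjusted p from 0.055 to 0.057 without LPS library B or untreated library B). None of the 7 sodium-proton exchangers of the Slc9 family passed the threshold by mRNA. Their pre-mRNA gave 1 rise and 2 falls, where 22.3% of all genes rose and 21.7% fell.

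Genes of the Slc35 family, nucleotide-sugar carriers and related genes grouped by family number alone, fell more often than they rose. By mRNA 7 of 21 fell and 1 rose, 33.3% and 4.8% against 16.5% and 19.2% of all genes. The same counts by pre-mRNA stood against 21.7% and 22.3% of all genes. Slc35f6 mRNA went from 10225 and 9803 to 5881 and 4785 (-0.92 ± 0.20, adjusted p = 0.013 in limma; -0.77 to -0.89, adjusted p from 0.055 to 0.097 without LPS library B or untreated library A), and Slc35e1 stayed within overlapping libraries (2923 and 3119 against 2961 and 3215). The single rise by mRNA was Slc35a4 (0.91), which lost its call under total scaling, where the list held no rise and 11 falls. Of 20 carriers of organic acids, cations and lipids 5 fell and 1 rose by mRNA, 25% and 5% against 16.5% and 19.2% of all genes. The rise was Slc16a10, a carrier of aromatic amino acids, from 5969 and 6057 to 38940.5 and 20410.2 (2.23 ± 0.44, adjusted p = 0.0095 in limma; 2.22 to 2.24, adjusted p from 0.052 to 0.055 without either untreated library; adjusted p = 0.055 scaled to total reads). Among the falls Slc16a6, of the monocarboxylate transporter family, went from 3528 and 2508 to 821 and 922 (-1.77 ± 0.22). The fatty acid transporter Slc27a1 was at -0.40 ± 0.18, adjusted p = 0.12 by mRNA in limma and fell by pre-mRNA (-1.40 ± 0.43, adjusted p = 0.033 in limma; -1.01 to -1.63, adjusted p from 0.07 to 0.16 without LPS library A or either untreated library; adjusted p = 0.065 with no filter on low values).

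Slc15a3 rose from 8138 and 14202 to 39563 and 45518 mRNA reads (1.98 ± 0.29, adjusted p = 0.003 in limma), while its lysosomal relative Slc15a4 had overlapping libraries (3414 and 3376 against 4085 and 2173). The lysosomal nucleoside transporter Slc29a3 fell (-1.43 ± 0.35, adjusted p = 0.019 in limma; -1.10 to -1.19, adjusted p from 0.086 to 0.1 without LPS library A or untreated library A). The sodium-coupled purine nucleoside transporter Slc28a2 had 185 and 86.9 mRNA reads untreated and 270.0 and 1459.6 with LPS. Its LPS libraries differed by 2.43 on the log2 scale and the change did not pass the threshold (2.30 ± 1.12, adjusted p = 0.15 in limma), and its pre-mRNA call (4.31 ± 1.14, adjusted p = 0.018) became 3.01 to 4.84, adjusted p from 0.054 to 0.1 without LPS library A or either untreated library; adjusted p = 0.051 with no filter on low values. Of the 9 carriers of vitamins, choline and acetyl-CoA 2 rose and 3 fell by mRNA, 22.2% and 33.3% against 19.2% and 16.5% of all genes. The vitamin C transporter Slc23a2 rose from 9228 and 9711 to 35274 and 44172 (2.06 ± 0.23). The choline transporter Slc44a1 rose from 2799 and 2286 to 10467 and 16219 (2.36 ± 0.37). Of the 3 falls the lysosomal membrane protein Slc46a3 was the largest, from 3849 and 3859 to 383 and 581 (-3.03 ± 0.33), beside Slc19a2 (-1.08), a thiamine transporter, and Slc44a2 (-0.89). The folate transporter Slc46a1 had 1 pre-mRNA read with LPS and 62 untreated, a 38.5-fold ratio whose 95% counting interval ran from 6.66 to 1545.

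The precursor and the mature transcript of a gene changed unequally with LPS for 2 members, 1.07% against 1.24% of all genes. Both had the larger fall in pre-mRNA. In 1.08% of all genes the pre-mRNA change was called lower than the mRNA change, whether the gene rose or fell. Slc37a2 pre-mRNA went from 5673 and 7373 to 233 and 292 normalized reads, a change of -4.63 ± 0.37 against -1.65 ± 0.16 by mRNA. The groups did not overlap in either measure, and the LPS level was fitted as 24.7-fold (pre-mRNA) and 3.13-fold (mRNA) below the untreated one; the difference was -2.98 ± 0.42, adjusted p = 0.0054 in limma. Slc2a8 pre-mRNA went from 174 and 168 to 2.35 and 9.45, -4.86 ± 0.70 against -1.14 ± 0.24 by mRNA. That difference was -3.72 ± 0.73, adjusted p = 0.032 in limma, and -2.90 to -3.90, adjusted p from 0.07 to 0.13 without either LPS mRNA library, LPS pre-mRNA library A, either untreated mRNA library or either untreated pre-mRNA library; adjusted p = 0.11 scaled to total reads. Both measures come from the same RNA and were treated as independent. Slc36a2 (-5.47 ± 2.01, adjusted p = 0.3), Slc22a18, an organic cation transporter-like gene (-3.76 ± 1.13, adjusted p = 0.17), Slc2a3 (-3.05 ± 1.41, adjusted p = 0.47) and Slc1a2 (2.17 ± 0.62, adjusted p = 0.14) did not pass the threshold in limma. Their pre-mRNA reads with LPS were few except for Slc1a2: 8.23 and 5.4 for Slc22a18 and 0 and 6.75 for Slc2a3.

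**Figure D3:**
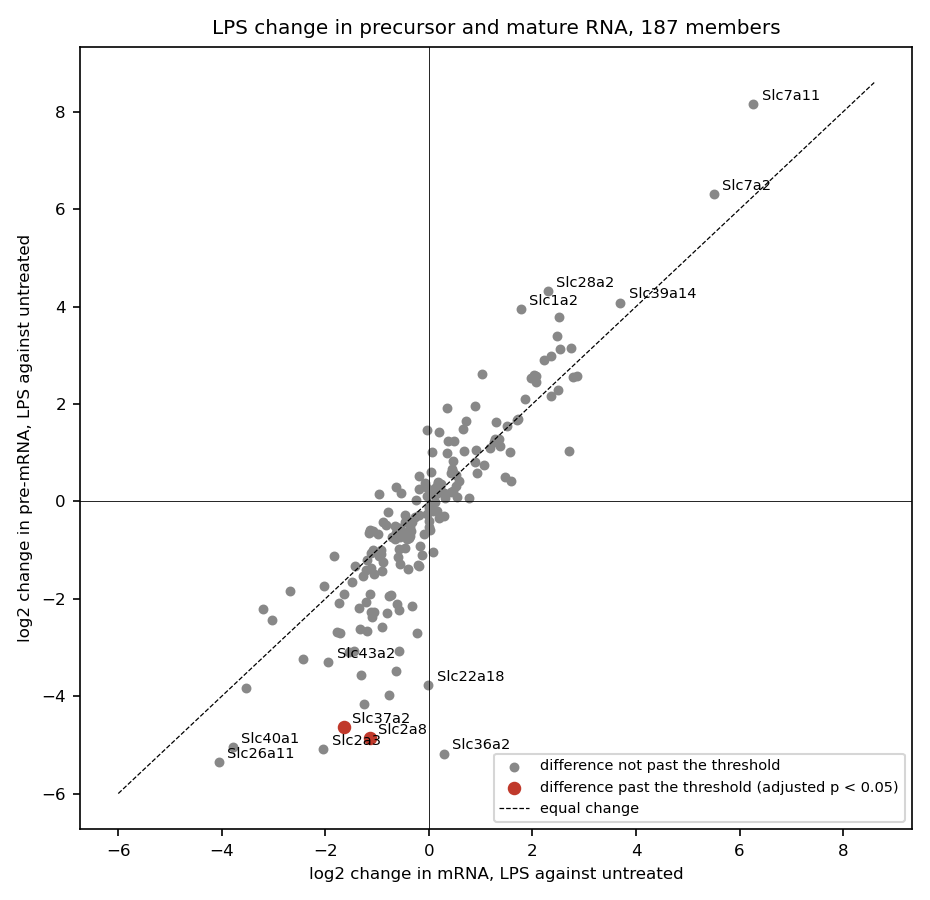
Each point is 1 of 187 members, with the LPS log2 change in mRNA on the x axis, that in pre-mRNA on the y axis and a dashed line of equal change. Slc37a2 and Slc2a8, in red, are the members whose difference passed the threshold and lie below the line; Slc7a11 lies at 6.27 and 8.16. Scaled to total reads, Slc37a2 kept its call and Slc2a8 did not.

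IL-10 throughout was compared with LPS alone to ask which of these transcripts IL-10 altered. By mRNA 2 members rose and 3 fell, 2.66% against 2.24% of all genes (1.19% rose and 1.05% fell). The 3 falls were amino acid carriers and the 2 rises metal carriers, among 28 and 26 genes. Each of the 5 calls ended when any 1 of the 4 LPS or IL-10 throughout libraries was left out, with no change of sign.

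Slc7a11 mRNA had 84149.8 and 79303 normalized reads with LPS and 29845 and 24087 with IL-10 throughout (-1.61 ± 0.25, adjusted p = 0.027 in limma; -1.45 to -1.76, adjusted p from 0.11 to 0.17 without either LPS library or either IL-10 throughout library). Both IL-10 libraries lay below the LPS libraries, fitted as 3.05-fold lower, and above the untreated ones. Slc1a2 had 229 and 294 with LPS and 45.6 and 54.2 with IL-10 throughout (-2.36 ± 0.28, adjusted p = 0.0093 in limma; -2.18 to -2.54, adjusted p from 0.05 to 0.1 without either LPS library or either IL-10 throughout library). Slc7a8 had 22932 and 25634 and 8163 and 9866 (-1.43 ± 0.22, adjusted p = 0.027 in limma; -1.30 to -1.57, adjusted p from 0.11 to 0.2 without either LPS library or either IL-10 throughout library; adjusted p = 0.076 scaled to total reads). With IL-10 throughout both Slc1a2 libraries lay below both untreated ones (77.4 and 73.2), and those of Slc7a8 lay within the untreated range (9949 and 7246). By pre-mRNA the same genes were at -1.46 ± 0.43, adjusted p = 0.086 (Slc7a11), -1.99 ± 0.50, adjusted p = 0.059 (Slc1a2) and -1.39 ± 0.44, adjusted p = 0.1 (Slc7a8) in limma, none past the threshold.

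Slc39a14 went up from 13818 and 15093 mRNA reads with LPS to 49186 and 34345 with IL-10 throughout (1.51 ± 0.24, adjusted p = 0.032 in limma; 1.25 to 1.77, adjusted p from 0.074 to 0.18 without either LPS library or either IL-10 throughout library). Slc41a1 (chr1:131827493-131848865) went from 378 and 359 to 1227 and 1312 (1.78 ± 0.23, adjusted p = 0.013 in limma; 1.73 to 1.83, adjusted p from 0.074 to 0.11 without either LPS library or either IL-10 throughout library). Both Slc41a1 libraries with IL-10 throughout were above both untreated libraries (917 and 1178). Slc41a1 also rose by pre-mRNA, from 74 and 109 to 230.1 and 290.2 (1.51 ± 0.32, adjusted p = 0.036 in limma; 1.23 to 1.68, adjusted p from 0.11 to 0.22 without LPS library A or either IL-10 throughout library; adjusted p = 0.052 with limma-voom, 0.08 with no filter on low values and 0.055 scaled to total reads). Slc39a14 pre-mRNA was at 1.13 ± 0.28, adjusted p = 0.054 in limma, short of the threshold, with 7708 and 9288 reads in the LPS libraries and 22096 and 15526 in those with IL-10 throughout, which did not overlap.

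By pre-mRNA 5 members rose and 2 fell with IL-10 throughout, 3.74% against 6.7% of all genes (2.44% rose and 4.26% fell). Slc43a2 went from 1197 and 1321 with LPS to 3575 and 3877 (1.56 ± 0.25, adjusted p = 0.016 in limma; 1.49 to 1.62, adjusted p from 0.072 to 0.11 without LPS library A or either IL-10 throughout library), while its mRNA was level (18548 and 15918 against 17176 and 16993). Its pre-mRNA libraries of the groups did not overlap. Slc39a10, whose promoter window is printed above, went from 121 and 192 to 434 and 373 (1.40 ± 0.28, adjusted p = 0.032 in limma; 1.07 to 1.50, adjusted p from 0.14 to 0.15 without LPS library A or either IL-10 throughout library; adjusted p = 0.066 with no filter on low values). Slc16a6 went from 605 and 638 to 1054 and 1401 (0.97 ± 0.21, adjusted p = 0.038 in limma; 0.76 to 1.17, adjusted p from 0.059 to 0.24 without either LPS library or either IL-10 throughout library) and overlaps Amz2 and Arsg on the other strand. In the comparison of LPS with untreated cells, which shares the LPS libraries, the pre-mRNA changes of these genes were -3.30 (Slc43a2), -2.28 (Slc39a10), -2.67 (Slc16a6) and -1.66 (Slc41a1).

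The 2 falls by pre-mRNA were both mitochondrial glutamate carriers, with LPS changes against untreated cells of 2.57 (Slc25a22) and 1.23 (Slc25a18) that share the LPS libraries. Slc25a22 went from 678 and 597 with LPS to 159 and 167 with IL-10 throughout (-1.96 ± 0.30, adjusted p = 0.014 in limma; -1.87 to -2.00, adjusted p from 0.072 to 0.092 without LPS library A or either IL-10 throughout library; adjusted p = 0.058 scaled to total reads). Its mRNA had 1883 and 3341 and 834 and 846 reads, groups that did not overlap, with -1.58 ± 0.36, adjusted p = 0.085 in limma. Slc25a18 went from 1935 and 1853 to 914 and 1026 (-0.97 ± 0.19, adjusted p = 0.028 in limma; -0.88 to -1.05, adjusted p from 0.13 to 0.14 without LPS library A or either IL-10 throughout library; adjusted p = 0.28 scaled to total reads). Scaling to total reads raises IL-10 throughout changes by 0.26 (mRNA) and 0.46 (pre-mRNA) and gives 6 rises and no fall by pre-mRNA.

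**Figure D4:**
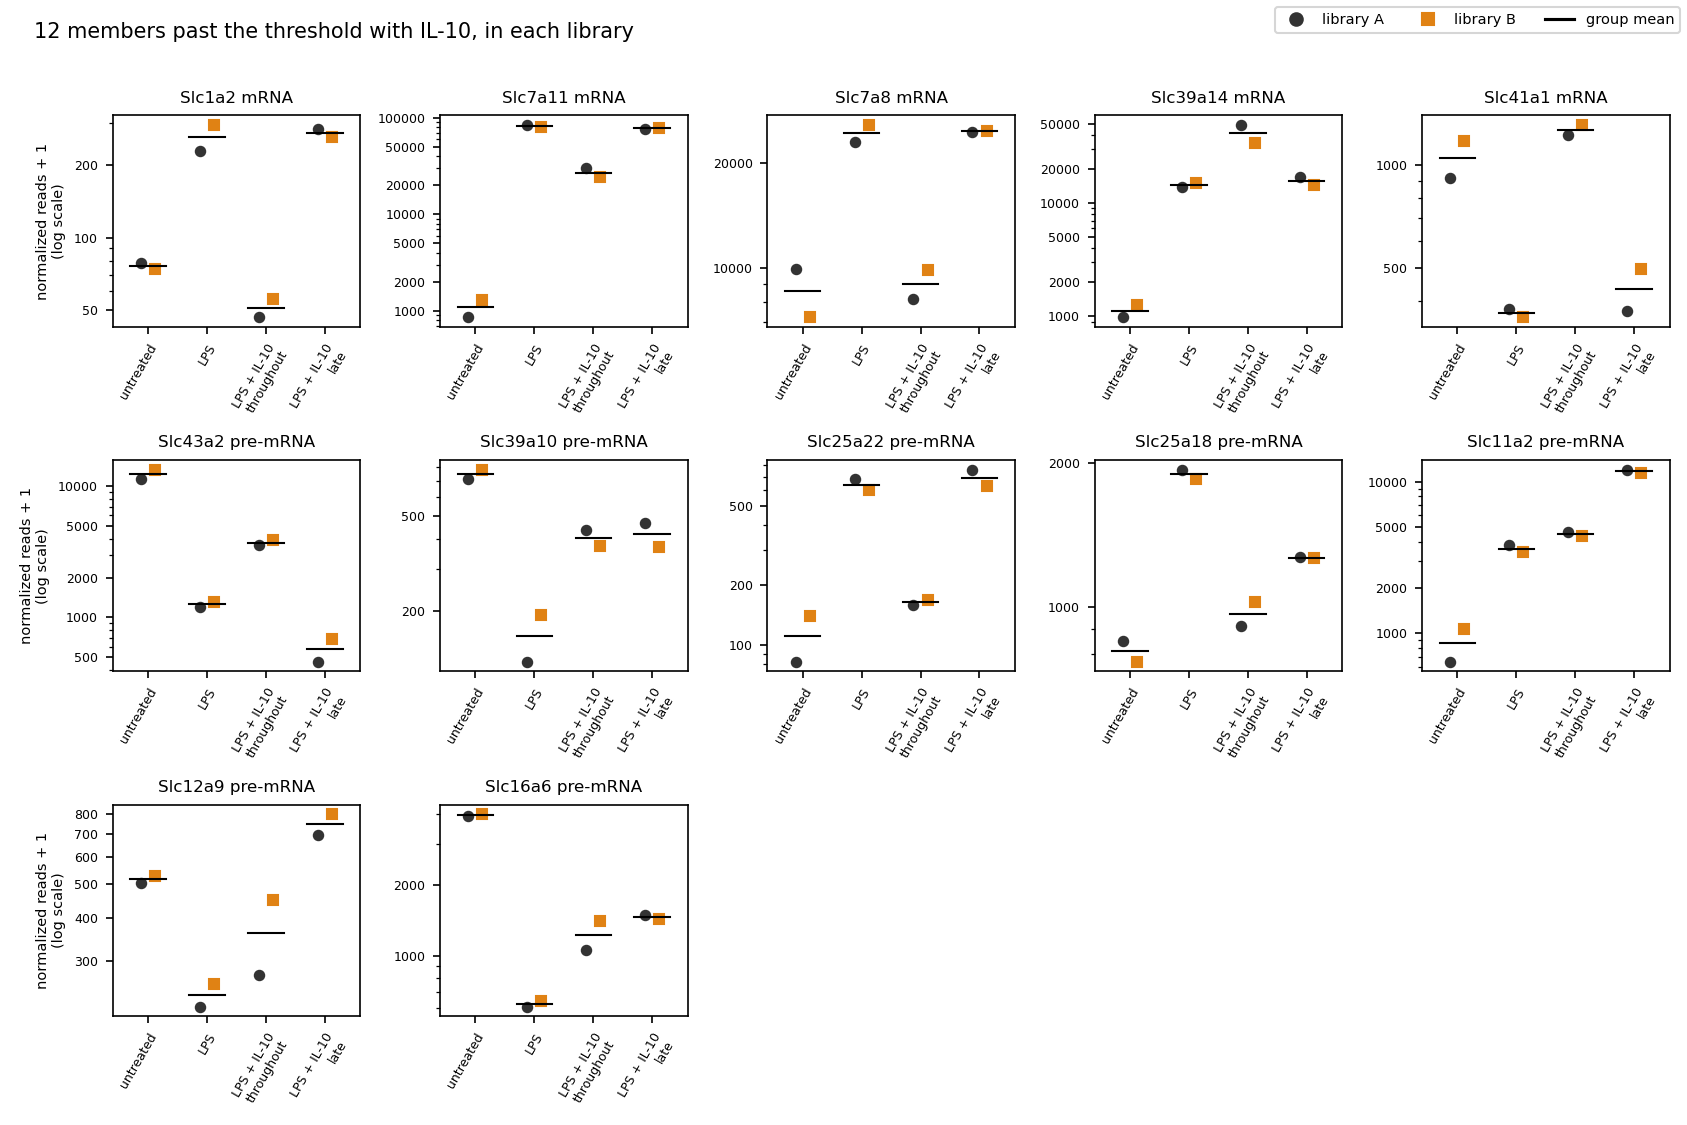
Each panel shows normalized reads + 1 (y axis, log scale) of 1 gene in library A (circle) and library B (square) of the 4 groups, with a line at the group mean; mRNA in the first row and pre-mRNA below. The IL-10 throughout libraries of Slc7a11 lie between the untreated and LPS libraries, and the late IL-10 libraries of Slc11a2 pre-mRNA lie above the other pre-mRNA libraries of that gene.

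With late IL-10, limma called 0 of 188 members by mRNA, as it did for all 11415 genes (0%); at an unadjusted p under 0.05 no member was higher or lower, against 92 and 15 of all genes, and limma-voom also called 0 members. Slc7a11 had 76803 and 77862 mRNA reads with late IL-10, Slc7a8 24526 and 24686 and Slc41a1 375 and 495. The late libraries lay just below the LPS ones for Slc7a11, between them for Slc7a8, and overlapped them for Slc41a1.

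By pre-mRNA 3 members rose with late IL-10 and none fell, 1.6% against 1.04% of all genes (0.979% rose). Slc11a2 went from 3804 and 3415 with LPS to 12002 and 11427 with late IL-10 (1.70 ± 0.27, adjusted p = 0.038 in limma; 1.62 to 1.78, adjusted p from 0.1 to 0.22 without either LPS library or either late IL-10 library; adjusted p = 0.07 with limma-voom and 0.076 with no filter on low values). Both late libraries were above every library of the other groups, IL-10 throughout included (4684 and 4372). The gene overlaps Gm5475 on the other strand. Slc12a9, of the cation-chloride cotransporter family, went from 219.7 and 256 to 691 and 796 (1.64 ± 0.28, adjusted p = 0.048 in limma; 1.53 to 1.75, adjusted p from 0.12 to 0.28 without either LPS library or either late IL-10 library; adjusted p = 0.05 with limma-voom, 0.11 with no filter on low values and 0.18 scaled to total reads). Slc16a6 went from 605 and 638 to 1486 and 1425 (1.23 ± 0.21, adjusted p = 0.048 in limma; 1.19 to 1.26, adjusted p from 0.15 to 0.3 without either LPS library or either late IL-10 library; adjusted p = 0.051 with no filter on low values and 0.16 scaled to total reads). For each of the 3 genes the late libraries lay above both LPS libraries. By mRNA these genes were at 0.51 ± 0.30, 0.62 ± 0.36 and 0.36 ± 0.22, none past the threshold. Of the other genes named above for a pre-mRNA rise with IL-10 throughout, none passed the threshold with late IL-10. Slc41a1 pre-mRNA was at 1.73 ± 0.32, Slc39a10 at 1.44 ± 0.28 and Slc43a2 at -1.17 ± 0.25 (adjusted p = 0.063, 0.075 and 0.1 in limma). For Slc41a1 and Slc39a10 the late libraries lay above both LPS libraries.

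**Figure D5:**
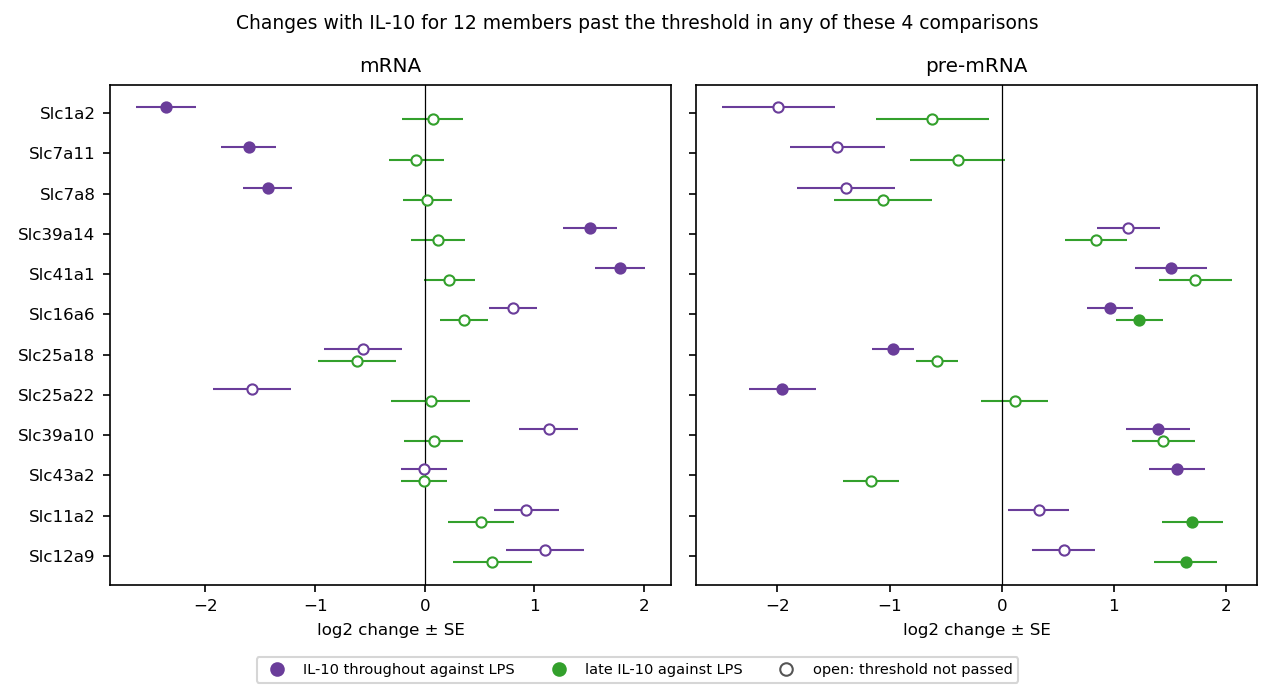
Log2 change ± SE (x axis) against LPS for 12 members past the threshold in any of the comparisons with LPS alone, IL-10 throughout in purple and late IL-10 in green, mRNA at left and pre-mRNA at right; open points did not pass the threshold. Slc43a2 pre-mRNA lies at 1.56 (purple) and -1.17 (green). Both schedules share the LPS libraries, and scaled to total reads the filled points of Slc7a8 mRNA, of Slc25a18, Slc25a22 and Slc41a1 pre-mRNA (IL-10 throughout) and of Slc12a9 and Slc16a6 pre-mRNA (late IL-10) lost their calls.

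The direct comparison of IL-10 throughout with late IL-10 called 1 member higher and 3 lower by mRNA, 2.13% against 1.09% of all genes (0.517% higher, 0.569% lower). Slc1a2 (-2.43 ± 0.28, adjusted p = 0.019; -2.31 to -2.55, adjusted p from 0.093 to 0.17 without either late IL-10 library or either IL-10 throughout library), Slc7a11 (-1.53 ± 0.25, adjusted p = 0.047; -1.37 to -1.68, adjusted p from 0.15 to 0.26 without either late IL-10 library or either IL-10 throughout library; adjusted p = 0.069 scaled to total reads) and Slc7a8 (-1.45 ± 0.22, adjusted p = 0.039; -1.32 to -1.59, adjusted p from 0.15 to 0.24 without either late IL-10 library or either IL-10 throughout library; adjusted p = 0.1 scaled to total reads) were lower with IL-10 throughout in limma. Slc41a1 was higher (1.56 ± 0.23, adjusted p = 0.035 in limma; 1.36 to 1.76, adjusted p from 0.093 to 0.24 without either late IL-10 library or either IL-10 throughout library). In all 4 genes the libraries of the schedules did not overlap.

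By pre-mRNA 1 member was higher and 2 lower in the throughout than in the late schedule, 1.6% against 2.96% of all genes (0.755% higher, 2.2% lower). Slc43a2 had 3575 and 3877 reads in the throughout libraries against 458 and 685 in the late ones (2.73 ± 0.25, adjusted p = 0.011 in limma; 2.44 to 2.79, adjusted p from 0.08 to 0.13 without late IL-10 library A or either IL-10 throughout library). The late libraries were below both LPS libraries and the throughout libraries above them. Against LPS the late change did not pass the threshold (-1.17 ± 0.25, adjusted p = 0.1 in limma). Slc25a22 had 159 and 167 and 759 and 625 (-2.07 ± 0.30, adjusted p = 0.026 in limma; -1.93 to -2.21, adjusted p from 0.063 to 0.22 without either late IL-10 library or either IL-10 throughout library; adjusted p = 0.06 with no filter on low values and 0.058 scaled to total reads). Slc11a2 was also lower with IL-10 throughout (-1.37 ± 0.27, adjusted p = 0.046 in limma; -1.32 to -1.42, adjusted p from 0.086 to 0.31 without either late IL-10 library or either IL-10 throughout library; adjusted p = 0.067 with limma-voom, 0.083 with no filter on low values and 0.12 scaled to total reads). Scaling to total reads raises these differences by 0.28 (mRNA) and 0.43 (pre-mRNA).

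Other members that LPS moved strongly did not pass the threshold with IL-10 throughout by mRNA. Slc7a2 had 57353 and 33683 reads, below both LPS libraries (-1.24 ± 0.43, adjusted p = 0.24 in limma), and Slc7a5 had 2217 and 1202, which overlapped them (-0.75 ± 0.54, adjusted p = 0.63). Slc15a3 was at 20682 and 23892 (-0.93 ± 0.29, adjusted p = 0.19), again below both LPS libraries. Slc40a1 (0.19 ± 0.26, adjusted p = 0.85), Slc37a2 (-0.20 ± 0.16, adjusted p = 0.67) and Slc26a11 (-0.10 ± 0.86, adjusted p = 0.99) were near their LPS level in limma. Slc25a42, low in all LPS-treated groups, had 19.6 and 16.8 reads with LPS and 41.1 and 65.9 with IL-10 throughout (1.47 ± 0.40, adjusted p = 0.14 in limma).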

How the data were processed

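RNA of 8 macrophage libraries in 4 groups was analysed from 1 table of 8 group columns. Build mm10, DESeq and Trim Galore were used, per the submitters' processing notes; neither the versions, aligner, counter and annotation nor the rule that separated pre-mRNA reads is given in the sources used here. The deposited signal values are group means of normalized reads: each is a sum of whole reads of 2 libraries divided by their size factors, and both libraries' reads were recovered for 100% of values (relative tolerance 2e-14, 0 second solutions). Recovery goes beyond the group means as deposited, and every p-value rests on it. Library A is the one with the larger size factor of a group, and no label ties it to a library A elsewhere.

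The test was limma-trend (limma 3.58.1, R 4.3.3) on log2(normalized reads + 1), a scale that understates changes of low genes. The 8 libraries were fitted together, once per measure, by group, over genes averaging 1 or more (11415 for mRNA, 11131 for pre-mRNA). Its errors pool the spread of all 4 groups. The members, lists and tests were chosen with earlier results of these data known. Named genes are the 10 largest rises and falls per comparison and measure past the threshold without overlap, the 2 most abundant members of each of 9 lists, and 19 fixed genes; others were named after their values were seen, where a count was 5 or fewer. Results of some members are not reported here, and the counts include them. Exon lengths, positions and overlaps come from GENCODE for mm10 (188 of 188 matched), promoters from RefSeq. Whether counting used strand is not given here, so reads of overlapping genes cannot be told apart. Alternatives were pseudocounts 0.25 and 5, a minimum mean of 10 or none, total-read scaling, limma-voom and leaving out each library. A block of libraries matched by their values was added after seeing the data.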

Additional observations from a re-analysis of the deposited data

Results flagged for a closer look

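Some results are listed because the schedules of IL-10 differed by a direct test in limma. By mRNA, IL-10 throughout minus late IL-10 was -2.43 for Slc1a2, -1.53 for Slc7a11, -1.45 for Slc7a8 and 1.56 for Slc41a1 (adjusted p = 0.019, 0.047, 0.039 and 0.035 in limma). By pre-mRNA it was -1.37 for Slc11a2, -2.07 for Slc25a22 and 2.73 for Slc43a2 (adjusted p = 0.046, 0.026 and 0.011 in limma). The other 2 are members whose LPS change in pre-mRNA minus that in mRNA passed the threshold: -2.98 for Slc37a2 and -3.72 for Slc2a8 (adjusted p = 0.0054 and 0.032 in limma). Groups of 2 libraries are too small for a test of single outlying libraries.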

How the results depend on the processing

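No paired analysis was possible from the labels because the columns carry no replicate numbers. Libraries matched across groups by their values, a hint from the data and not the design, were fitted as a replicate block, chosen after seeing the data. Members with a change were then 123 (LPS, mRNA), 126 (LPS, pre-mRNA), 31 and 47 (IL-10 throughout, mRNA and pre-mRNA), 0 and 15 (late IL-10), 23 and 42 (throughout against late) and 31 (the LPS difference between the measures). No call of a named member was lost under this block, and since the matching uses the values tested, its p-values may be too small. Leaving out 1 library gave 42 to 63 members with a change for LPS by mRNA (80 in the full fit) and 61 to 88 by pre-mRNA (94), 0 to 0 (5) and 0 to 15 (7, with 15 without LPS library B) for IL-10 throughout by mRNA and pre-mRNA, 0 to 1 for late IL-10 by pre-mRNA (3), 0 to 0 (4) and 0 to 1 (3) for throughout against late IL-10 by mRNA and pre-mRNA, and 1 to 7 for the LPS difference between pre-mRNA and mRNA (2, with 7 without LPS pre-mRNA library B). A group left with 1 library is assumed to vary like the others. With no filter on low values the pre-mRNA counts were 4 (IL-10 throughout), 1 (late IL-10) and 1 (throughout against late). Scaling to total reads gave 1 for late IL-10 and 1 for throughout against late, both by pre-mRNA, and 1 for the LPS difference between the measures; limma-voom gave 1 for late IL-10 by pre-mRNA. The causes were not tested. All other alternatives left these counts within 1.5 times, and late IL-10 by mRNA stayed at 0 in each. Of 109 calls of named members 59 held under every alternative run, 50 were lost under at least 1, and 0 reversed. Members whose 2 libraries differed by 1 or more on the log2 scale numbered 16 (untreated), 45 (LPS), 22 (IL-10 throughout) and 33 (late IL-10) of 188 by pre-mRNA, and 11, 18, 18 and 19 by mRNA, and the part of depth in this was not tested.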

Other observations

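Some members differed widely between the 2 libraries of a group, chosen here after their values were seen. The purine nucleoside transporter Slc28a2 differed on the log2 scale of mRNA by 1.08 between the untreated libraries, 2.43 between the LPS libraries, 1.81 between those of IL-10 throughout and 2.60 between those of late IL-10. Its pre-mRNA differed by 1.06, 2.60, 2.11 and 2.65 in the same order. Library A was the higher one in all of these groups except LPS by mRNA. Over all genes compared, the gap between the LPS mRNA libraries also ran opposite to that of the other groups (Pearson's r from -0.35 to -0.89). The vesicular monoamine transporter Slc18a1 was lower in library A by pre-mRNA in all 4 groups, with A minus B at -3.23 untreated, -3.17 with LPS, -3.55 for IL-10 throughout and -3.41 for late IL-10, while by mRNA it was 0.19, 0.53, -0.40 and 0.48. Slc36a2, a carrier of small amino acids, differed by 0.21 untreated but by 1.03, 2.43 and 1.94 in the treated groups by mRNA. The median difference over the 188 members was 0.31 to 0.35 by mRNA and 0.33 to 0.51 by pre-mRNA, depending on the group.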
